A study of Mus musculus with 7 samples.

Results

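A set of 10 imprinted genes of the growth-control type was followed in RNA from mouse femora, chosen by their gene symbols among the 27179 genes of the count tables: Peg3, Zim1, Plagl1, Igf2, H19, Dlk1, Meg3, Mest, Cdkn1c and Grb10, all of which were found. Peg3 and Zim1 were placed on the list because of their difference between the genotypes in these libraries, so for these 2 genes the difference is given as a description, without a test. The other 8 were named as imprinted genes of the same kind. The RNA came from cortical bone of the femora of 12-week-old female C57BL/6 mice, with the ends removed and the marrow flushed out, and was sequenced in 3 libraries labelled Dmp1Cre.EfnB2f/f and 4 control libraries labelled Dmp1Cre. Both groups carried Dmp1Cre, a Cre recombinase driven by the Dmp1 promoter, which is active in late osteoblasts and osteocytes, and only the former also carried floxed Efnb2 on both alleles. The controls were littermates or cousins, and by the study's methods mice had received calcein and were fasted before collection. Collection took 2 days, with 2 Dmp1Cre.EfnB2f/f and 3 control samples on the first and 1 of each on the second, but the labels do not tie days to libraries, so no value within a day could be given. Vessels, fibrous tissue, attached muscle and residual marrow also contributed RNA, as the levels of their markers showed. The labels name 4 parent crosses: Dmp1Cre.EfnB2f/f 1 and 2 came from one, controls 1 and 2 from another, the pair of Dmp1Cre.EfnB2f/f 3 and control 3 from one that both genotypes shared, and control 4 from the last.

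Imprinted genes are expressed from one parental allele, through methylation marks set in the germline. Many act on growth, with paternally expressed genes such as Igf2 tending to promote it and maternally expressed genes such as Cdkn1c and Grb10 tending to restrain it, and most are high before birth and fall in the first weeks of life. Several are co-expressed across tissues as an imprinted gene network, in which the zinc finger factor Plagl1 binds and regulates other members. Counts per gene do not separate the parental alleles, so imprinting itself was not measured.

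Peg3 and Zim1 are neighbours in one imprinted domain of chromosome 7. In GRCm38.p6, Peg3 lies on the minus strand from 6703892 to 6730462 and Zim1 on the same strand from 6674444 to 6696540, with 7351 bases between them. The sequences upstream of both genes, outside the annotated gene, are shown because this pair carried the widest differences among the members and because Plagl1 recognises a short palindrome, GGGGCCCC. In the RefSeq sequence of GRCm38.p6 (5′ to 3′, capitals mark the palindrome), the 207 bases at chr7:6730463-6730669 before Peg3 held it and the 142 bases at chr7:6696541-6696682 before Zim1 did not.

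Peg3: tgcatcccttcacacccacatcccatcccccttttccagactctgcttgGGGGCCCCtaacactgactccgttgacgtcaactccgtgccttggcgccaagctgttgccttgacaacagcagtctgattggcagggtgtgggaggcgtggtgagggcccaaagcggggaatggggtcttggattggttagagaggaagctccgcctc

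Zim1: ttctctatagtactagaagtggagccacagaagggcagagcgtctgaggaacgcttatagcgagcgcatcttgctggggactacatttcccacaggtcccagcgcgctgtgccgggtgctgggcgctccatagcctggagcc

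GGGGCCCC, which reads the same on both strands, was present in the 250 bases before the transcript start in 292 of 32851 RefSeq promoters (0.889%). Promoters were in the table for 8 of the 10 members, with 15 starts in all, and the Peg3 start was the only one of the 15 with a match. The YY1 motif GCCATNTT, searched on both strands, was present in 1284 of the 32851 promoters (3.91%) and in 0 of the 15. These are matches of letters in a fixed window, not measured binding.

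Library totals ranged from 17245556 to 22075778 counts. The targeted gene Efnb2 went against the labels: it had 11.8 to 17.9 CPM (counts scaled to library size with TMM factors) in the Dmp1Cre.EfnB2f/f-labelled libraries and 6.36 to 8.49 CPM in the controls, so libraries are named by their labels throughout. Reads were counted over all of Efnb2, not over its deleted part, in bone that holds cells without Dmp1Cre. With primers for the targeted region, the paper reported effective Efnb2 targeting in osteocytes sorted from reporter mice of this genotype. It found Efnb2 retained in their other cells. Vessels also express Efnb2, and the summed endothelial markers were likewise higher without overlap (426.8 to 517.9 against 327.6 to 412.0 CPM), whose part in the Efnb2 level was not tested. Singly, 3 of the 6 endothelial markers were higher without overlap, where 5.05% of all genes tested were. The osteocyte and osteoblast markers (10 of 10 measured, 0 at zero in every library) summed to between 14415 and 71985 CPM over the 7 libraries. Controls 1, 3 and 4 stood apart in cell markers. The highest sums of osteocyte and osteoblast, fibroblast and satellite cell markers were in control 1, and that of erythroid markers was in control 4. Control 3 had 32526 CPM of summed skeletal muscle fibre markers, against 14550 to 16542 CPM in the other controls. With edgeR's quasi-likelihood test and Benjamini-Hochberg adjustment, 0 of 15098 genes tested passed an adjusted p-value of 0.05, 1459 had an unadjusted p-value under 0.05, and DESeq2 called 24 genes higher and 48 lower. The paper's own limma fit had a block for collection day and sample quality weights. It reported genes past its threshold in both directions, with Peg3 and Zim1 among the top ones, both higher.

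Levels between the members were compared as RPKM, which divides CPM by the exon length of the count tables in kilobases. H19, a maternally expressed long non-coding RNA, was highest with a mean of 100.3 RPKM over the 7 libraries and a higher level than 96.6% of the genes tested. Grb10, an adaptor that damps insulin and IGF receptor signals, followed with 12.97 RPKM. Below it came Cdkn1c at 6.78, Peg3 at 5.93, Igf2 at 3.39, Mest at 3.38, Plagl1 at 2.83, Meg3 at 1.12 and Zim1 at 1.12 RPKM. Dlk1, a transmembrane protein of the Notch ligand type that restrains fat cell formation, was last at 0.0407 RPKM. Only the steps from H19 to Grb10, from Grb10 to Cdkn1c and from Zim1 to Dlk1 were free of overlap between the library ranges. From Cdkn1c to Zim1 the range of each gene overlapped that of the next. Compared within libraries, Plagl1 was above Meg3 in 6 of 7, and the other overlapping steps held in 3 to 5 of 7.

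Peg3, a paternally expressed zinc finger protein, had 84.3, 74.2 and 23.4 CPM in Dmp1Cre.EfnB2f/f 1, 2 and 3 and 33.9, 17.9, 32.4 and 8.75 CPM in controls 1 to 4. Dmp1Cre.EfnB2f/f 1 and 2 were above every control, while Dmp1Cre.EfnB2f/f 3 lay within the range of the controls, so the groups overlapped. The mean was 60.6 ± 32.6 CPM (SD, n = 3) against 23.2 ± 12.1 CPM (SD, n = 4), for which edgeR gave a log2 fold change of 1.38 ± 0.53 (SE). Its antisense RNA Peg3os, which overlaps it, had 0 counts in all 7 libraries. The strand setting of the counting is not given, so reads in the overlap may not have been assigned to Peg3os. In whole bone, more cells of a type that expresses a gene and more RNA per cell cannot be told apart.

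Zim1, a maternally expressed zinc finger gene, followed the same order of groups at a lower level. Its counts were 150, 160 and 33 in the Dmp1Cre.EfnB2f/f-labelled libraries and 65, 36, 44 and 10 in the controls, or 8.34, 8.77 and 1.74 CPM against 3.37, 2.05, 2.58 and 0.543 CPM. Again the first and second libraries labelled Dmp1Cre.EfnB2f/f exceeded all controls, and the third was below 3 of the 4. The log2 fold change was 1.55 with a standard error of 0.64. Peg3 had between 8.46 and 16.1 reads for each read of Zim1 in every library, and the mean log2 ratio of their counts was 3.38 ± 0.33 (SD, n = 3) in the Dmp1Cre.EfnB2f/f-labelled libraries and 3.50 ± 0.37 (SD, n = 4) in the controls. Each gene thus varied 9.63-fold (Peg3) and 16.1-fold (Zim1) between its highest and lowest library, while the log2 ratio of the pair spanned 0.87.

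The 2 high libraries came from 1 cross that held no control. In the only cross with both genotypes, the direction was the opposite: Dmp1Cre.EfnB2f/f 3 had 0.722 times the Peg3 and 0.675 times the Zim1 CPM of control 3. The labels do not tell whether both libraries were collected on the same day. Against controls of other crosses, Peg3 in Dmp1Cre.EfnB2f/f 3 was above controls 2 and 4 and below control 1. Zim1 there was above control 4 and below controls 1 and 2. Fitting the parent cross as a block rests on Dmp1Cre.EfnB2f/f 3 and control 3, and the log2 fold change was then -0.47 for Peg3 and -0.56 for Zim1. Genotype and cross cannot be told apart for the high libraries.

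**Figure D1:**
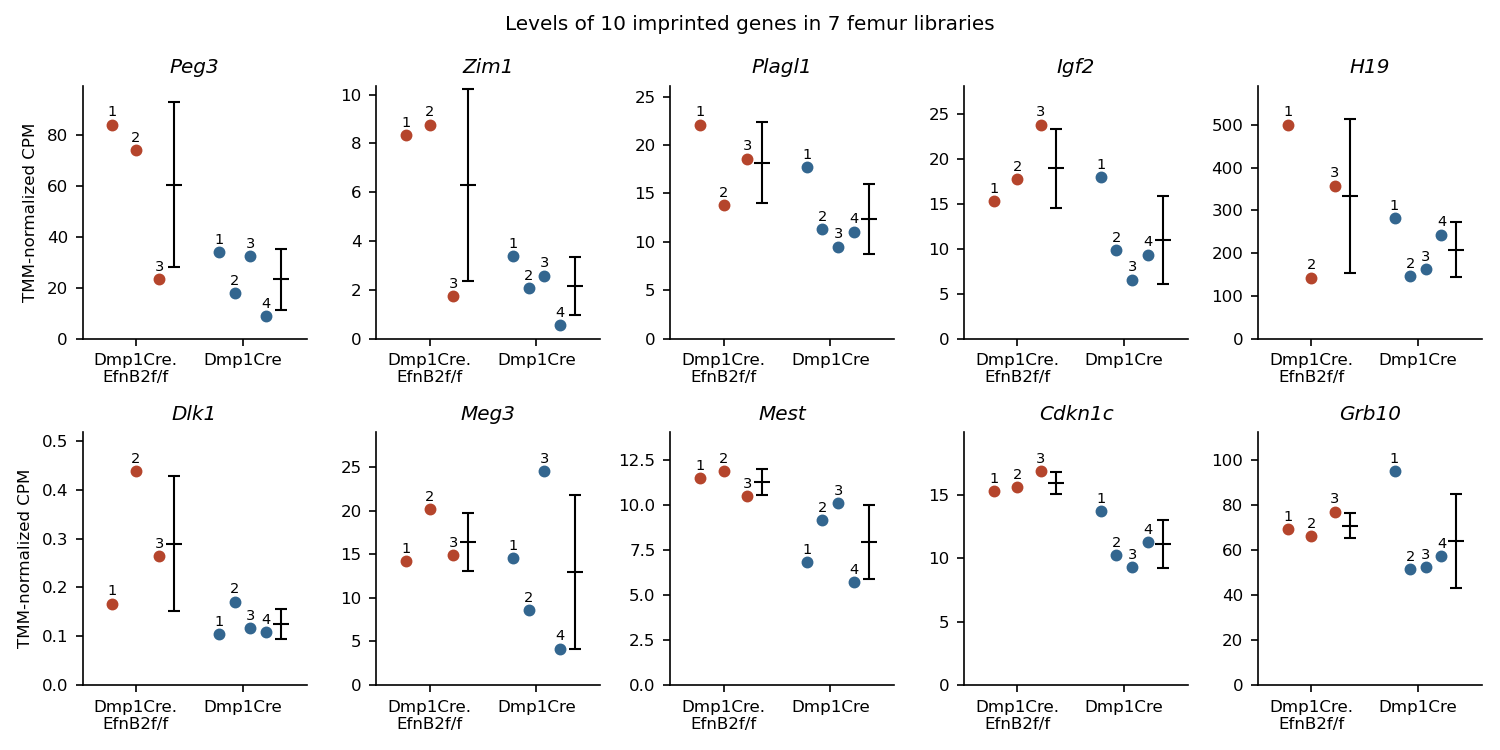
TMM-normalized CPM (vertical axes, each from 0) of the 10 genes in the Dmp1Cre.EfnB2f/f-labelled libraries (red, n = 3) and Dmp1Cre (blue, n = 4). Points are libraries with their replicate number, the black dash and bars beside them are the mean ± SD. For Peg3 and Zim1 points 1 and 2 of Dmp1Cre.EfnB2f/f stand above all controls and point 3 does not, while for Mest and Cdkn1c all 3 do.

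Of the other 8 members, Dlk1 did not pass the filter on low counts, and 7 were tested. With edgeR, 0 of the 7 passed an adjusted p-value of 0.05, where 0% of all genes did in either direction, and 2 of 7 (Igf2 and Cdkn1c) had an unadjusted p-value under 0.05 with a higher level in the Dmp1Cre.EfnB2f/f-labelled libraries, where 4.63% of all genes did (9.66% in either direction). In 2 of 7 (Mest and Cdkn1c) every Dmp1Cre.EfnB2f/f-labelled library was above every control, which held for 5.05% of the genes tested. All 7 log2 fold changes were positive, from 0.15 to 0.79 with a median of 0.52, where 51.3% of all genes were positive and the median of all genes was 0.012. These 7 share their libraries, so they are not independent of each other.

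Plagl1, the zinc finger transcription factor also known as Zac1 (chromosome 10, 13090832 to 13131694), had 22.1, 13.8 and 18.6 CPM in the Dmp1Cre.EfnB2f/f-labelled libraries and 17.7, 11.3, 9.48 and 11.03 CPM in the controls. Control 1 was above Dmp1Cre.EfnB2f/f 2, so the groups overlapped. In edgeR the log2 fold change was 0.55 ± 0.26 (SE, adjusted p = 0.513). Control 1 was the highest control for 7 of the 9 tested members, all but Meg3 and Mest.

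Igf2, the fetal insulin-like growth factor, is expressed from the paternal allele, and H19 from the maternal allele of the same domain on chromosome 7, 72621 bases away. Igf2 lies from 142650768 to 142666816 and H19 from 142575530 to 142578146, both on the minus strand. Igf2 had 15.3, 17.7 and 23.8 CPM in Dmp1Cre.EfnB2f/f 1 to 3 and 18.0, 9.87, 6.56 and 9.35 CPM in controls 1 to 4. All Dmp1Cre.EfnB2f/f-labelled libraries were above controls 2, 3 and 4, and control 1 was above the first and second of them. In edgeR the log2 fold change was 0.79 ± 0.33 (SE, unadjusted p = 0.0423, adjusted p = 0.511), and the limma pipeline without a day block called it higher (log2 fold change 0.88, adjusted p = 0.0183). That fit called 7.49% of all genes higher and 7.39% lower, and without its quality weights the limma adjusted p of Igf2 was 0.466.

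H19 had 501.2, 142.7 and 357.8 CPM in the Dmp1Cre.EfnB2f/f-labelled libraries and 282.1, 145.4, 163.1 and 243.0 CPM in the controls. The highest and the lowest of the 7 libraries, Dmp1Cre.EfnB2f/f 1 and 2, bore the same genotype label and came from the same cross. Its log2 fold change of 0.68 in edgeR had a standard error of 0.41 (adjusted p = 0.532), and was 0.26 without Dmp1Cre.EfnB2f/f 1 and 1.05 without Dmp1Cre.EfnB2f/f 2. Igf2 had 0.0305 reads per H19 read in Dmp1Cre.EfnB2f/f 1, the lowest of the 7 libraries, and 0.124 in Dmp1Cre.EfnB2f/f 2, the highest. The difference between the genotypes in the mean log2 ratio of Igf2 to H19 counts was 0.31 (-3.98 ± 1.01, SD, n = 3, against -4.29 ± 0.43, SD, n = 4; two-sided exact permutation test over 35 splits, p = 0.629, where the smallest possible is 0.0286), and it was -0.18 without Dmp1Cre.EfnB2f/f 2.

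H19 RNA carries the hairpin of miR-675 and the Mest gene holds that of miR-335, and the count tables gave both hairpins a row of their own. The mature sequences (RefSeq annotation of GRCm38.p6, bases 2 to 8 in capitals as the seed) show what those host genes encode beside their long RNA.

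miR-675-5p: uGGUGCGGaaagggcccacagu

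miR-675-3p: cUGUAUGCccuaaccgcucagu

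miR-335-5p: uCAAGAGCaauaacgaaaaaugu

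miR-335-3p: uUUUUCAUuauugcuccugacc

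No seed is shared among these 4. The miR-675 hairpin had 0 counts in all 7 libraries and the miR-335 hairpin had 16 in all, in libraries made for long RNA, so mature miRNAs were not measured.

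Dlk1 and Meg3 are the paternally expressed protein gene and the maternally expressed long non-coding RNA of one domain on chromosome 12, 77659 bases apart, Dlk1 from 109452485 to 109463336 and Meg3 from 109540996 to 109571729. Dlk1 had 3, 8 and 5 counts in the Dmp1Cre.EfnB2f/f-labelled libraries and 2, 3, 2 and 2 in the controls, too few for a comparison of levels. Meg3 had 14.2, 20.2 and 14.9 CPM in the Dmp1Cre.EfnB2f/f-labelled libraries and 14.6, 8.61, 24.5 and 4.18 CPM in the controls. The 3 former lay inside the range of the controls, whose highest library was 5.86 times the lowest. In edgeR the log2 fold change was 0.34 ± 0.50 (SE, adjusted p = 0.763), 0.045 without control 4 and 0.85 without control 3. A block for the parent cross turned it to -0.72. The mean log2 ratio of Dlk1 to Meg3 counts differed by 0.38 between the genotypes (-5.77 ± 0.38, SD, n = 3, against -6.15 ± 1.1, SD, n = 4; two-sided exact permutation test, p = 0.60), and by -0.035 without control 3. It was 0.11 (exact permutation p = 0.914) with 2 in place of 0.5 added to each count, and rests on the few Dlk1 reads.

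Mest, a paternally expressed gene of the hydrolase fold family (chromosome 6, 30733506 to 30748466), had 11.5, 11.9 and 10.49 CPM in the Dmp1Cre.EfnB2f/f-labelled libraries and 6.84, 9.18, 10.1 and 5.71 CPM in the controls. The groups did not overlap, although Dmp1Cre.EfnB2f/f 3 and control 3, of the same cross, were within 1.04-fold of each other. In edgeR the log2 fold change was 0.51 ± 0.23 (SE, adjusted p = 0.511). Mest overlaps Copg2, which had 8955 counts over the 7 libraries, and the strand setting of the counting is not given, so part of the reads cannot be assigned to one of them with certainty.

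Cdkn1c, the cyclin-dependent kinase inhibitor p57 (chromosome 7, 143458339 to 143461059), had 15.3, 15.6 and 16.9 CPM in the Dmp1Cre.EfnB2f/f-labelled libraries and 13.7, 10.2, 9.31 and 11.2 CPM in the controls. Its groups were apart, with little spread among the 3 libraries of the first (15.9 ± 0.842 CPM, SD, n = 3) against the controls (11.1 ± 1.91 CPM, SD, n = 4). In edgeR the log2 fold change was 0.52 ± 0.19 (SE, unadjusted p = 0.0217, adjusted p = 0.511), and the limma pipeline without a day block called it higher (log2 fold change 0.54, adjusted p = 0.0162), as it did 7.49% of all genes. Without quality weights the limma adjusted p of Cdkn1c was 0.459. In the cross with both genotypes its level was 1.81 times that of control 3.

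Grb10 (chromosome 11, 11930499 to 12037428) had 69.3, 66.2 and 77.0 CPM in the Dmp1Cre.EfnB2f/f-labelled libraries and 95.0, 51.4, 52.2 and 57.2 CPM in the controls. The first 3 were above controls 2, 3 and 4 and below control 1. With all libraries the log2 fold change was 0.15 in edgeR (SE 0.24, adjusted p = 0.783), and it was 0.40 without control 1 and 0.056 without control 2.

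**Figure D2:**
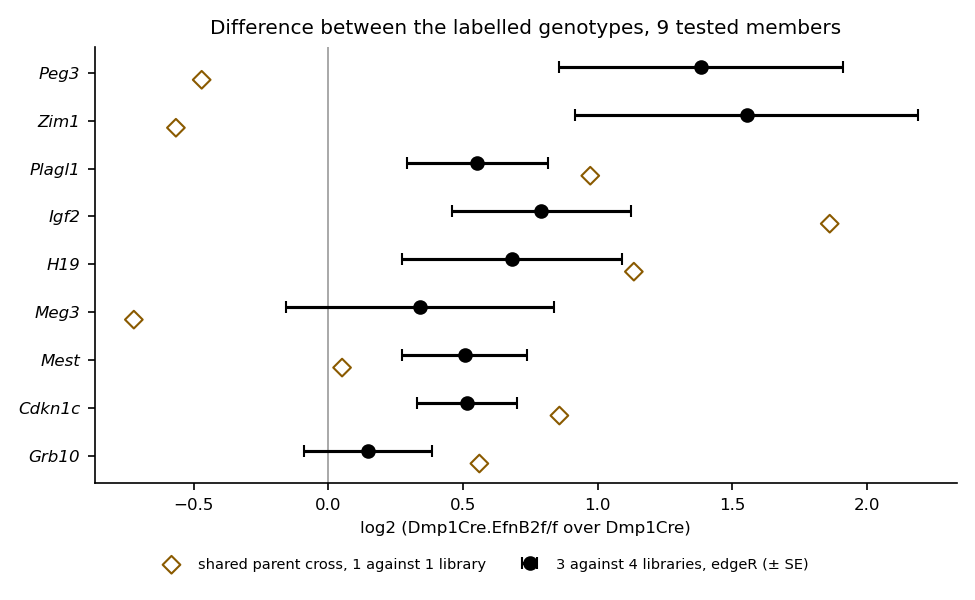
Log2 difference (horizontal axis) between libraries labelled Dmp1Cre.EfnB2f/f and Dmp1Cre for the 9 tested members. Filled points are the edgeR log2 fold changes with bars of 1 standard error (3 against 4 libraries), and open diamonds are Dmp1Cre.EfnB2f/f 3 over control 3, 1 library each. All 9 filled points are above 0, and the diamonds of Peg3, Zim1 and Meg3 are below 0.

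The cross shared by both genotypes split the members. Relative to control 3, Dmp1Cre.EfnB2f/f 3 had 3.63 times the Igf2, 2.19 times the H19, 1.96 times the Plagl1 and 1.47 times the Grb10 CPM, while Meg3 was at 0.606 times, beside the lower Peg3 and Zim1 given above. This is 1 library against 1, with no replicate check and with the collection day of each not known.

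How alike the members were across libraries was described by the root mean square (RMS) difference of their centred log2 CPM over the 7 libraries, where 0 is an identical profile. Among the 36 pairs of tested members, the closest were Cdkn1c and Grb10 (0.22), Plagl1 and Cdkn1c (0.22), Plagl1 and Grb10 (0.26) and Peg3 and Zim1 (0.27). The measure depends on how much a gene varied. From a flat profile, with every library at the gene's mean, Cdkn1c was 0.31, Grb10 0.30 and Plagl1 0.42 away. Peg3 was 1.05 and Zim1 1.21 away from it. The small distances among Cdkn1c, Grb10 and Plagl1 thus go with little variation and need not mean a shared pattern. The farthest pair was Zim1 and H19 (1.33). Peg3 was farther from Plagl1 (0.90) than from Meg3 (0.68), and Plagl1 ranked 3121 among all tested genes by closeness to Peg3.

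**Figure D3:**
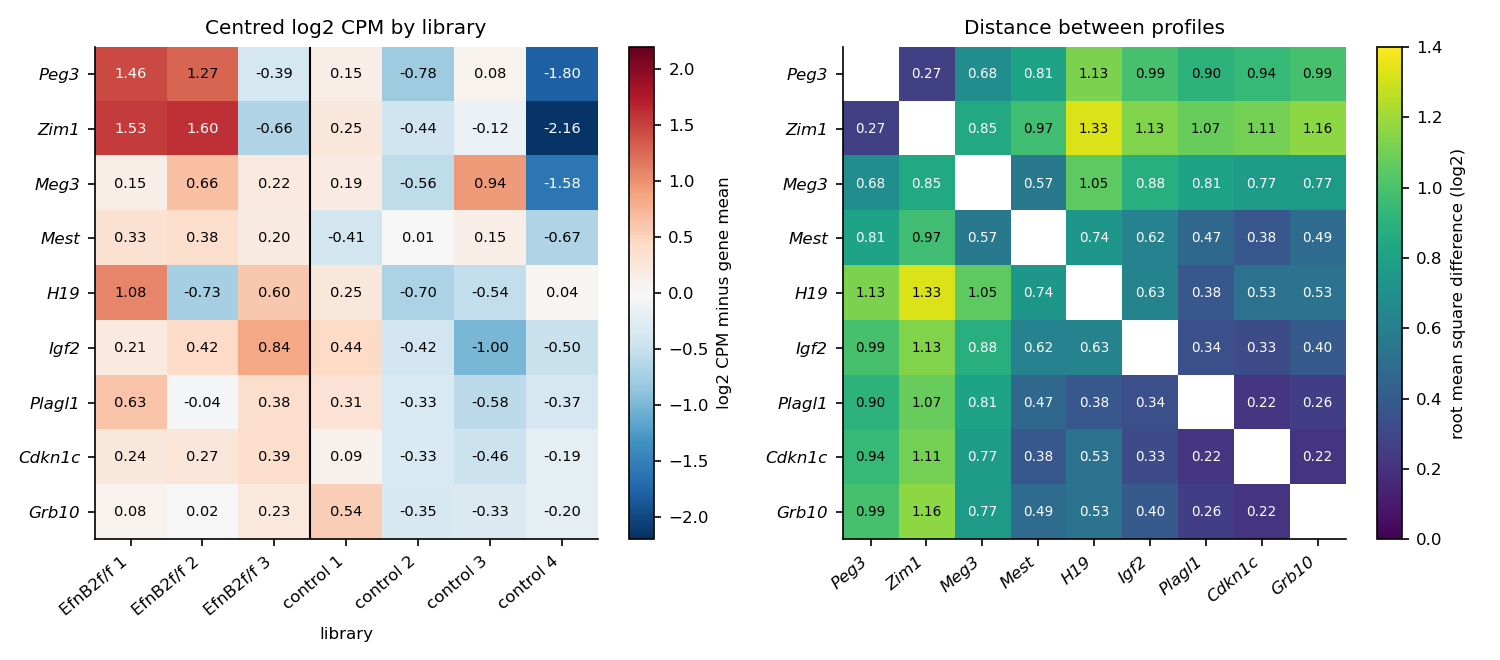
Left, log2 CPM minus the gene's mean over the 7 libraries (colour and printed value) for the 9 tested members, with a line between the libraries labelled EfnB2f/f and the controls. Right, RMS difference in log2 units for each pair of members. Peg3 and Zim1 form a dark pair (0.27) away from the other members, and Plagl1, Cdkn1c and Grb10 form a second dark block (0.22 to 0.26). The genes of the second block varied little, at 0.30 to 0.42 from a flat profile.

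Peg3 had the profile closest to Zim1 among 15097 other tested genes, and Zim1 ranked 5 for Peg3. Both were chosen for a difference over these same libraries, so part of this closeness follows from the choice and it is given as a description. The 5 genes outside the list closest to Peg3 were Abca6, a lipid transporter (0.20), Fhl5 (0.22), Cnksr1 (0.23), Plin4 (0.24) and Atp1b4 (0.27). Those closest to Zim1 were Cnksr1 (0.28), Retreg1, a receptor for autophagy of the endoplasmic reticulum (0.29), Tacc2 (0.33), Klhl38 (0.34) and Atp1b4 (0.34). Plin4, which coats lipid droplets, had 387.6, 428.5 and 131.2 CPM in the Dmp1Cre.EfnB2f/f-labelled libraries and 207.8, 127.1, 259.9 and 51.0 CPM in the controls, so Dmp1Cre.EfnB2f/f 1 and 2 were again the highest and control 4 the lowest.

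The Meg3 domain also held close profiles. Rian, a long non-coding RNA expressed with Meg3 from the maternal allele, had 125, 225 and 193 counts in the Dmp1Cre.EfnB2f/f-labelled libraries and 122, 98, 349 and 54 in the controls, with control 3 highest and control 4 lowest as for Meg3. Its RMS difference from Meg3 was 0.29, the 6th smallest of 15097, and that of Rtl1, which overlaps Meg3 and had 89 counts in all, was 0.27, the 3rd smallest. Reads of Rtl1 and Meg3 may be shared, since the strand setting is not given. Of 15 pairs of a member and a tested neighbour, Peg3 with Zim1 left out, these were the 2 with the neighbour among the 10 closest genes, and the ranks of the other 13 ran from 2728 to 13229. Igf2 and H19 had an RMS difference of 0.63 (rank 4636 for Igf2), Mest and Copg2 0.39 (rank 5349 for Mest), Grb10 and Cobl 0.41 (rank 6861 for Grb10), and Cdkn1c and Kcnq1ot1, the antisense RNA of its domain, 0.65 (rank 13229 for Cdkn1c). These ranks describe 7 libraries, share normalization, and were not tested.

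**Figure D4:**
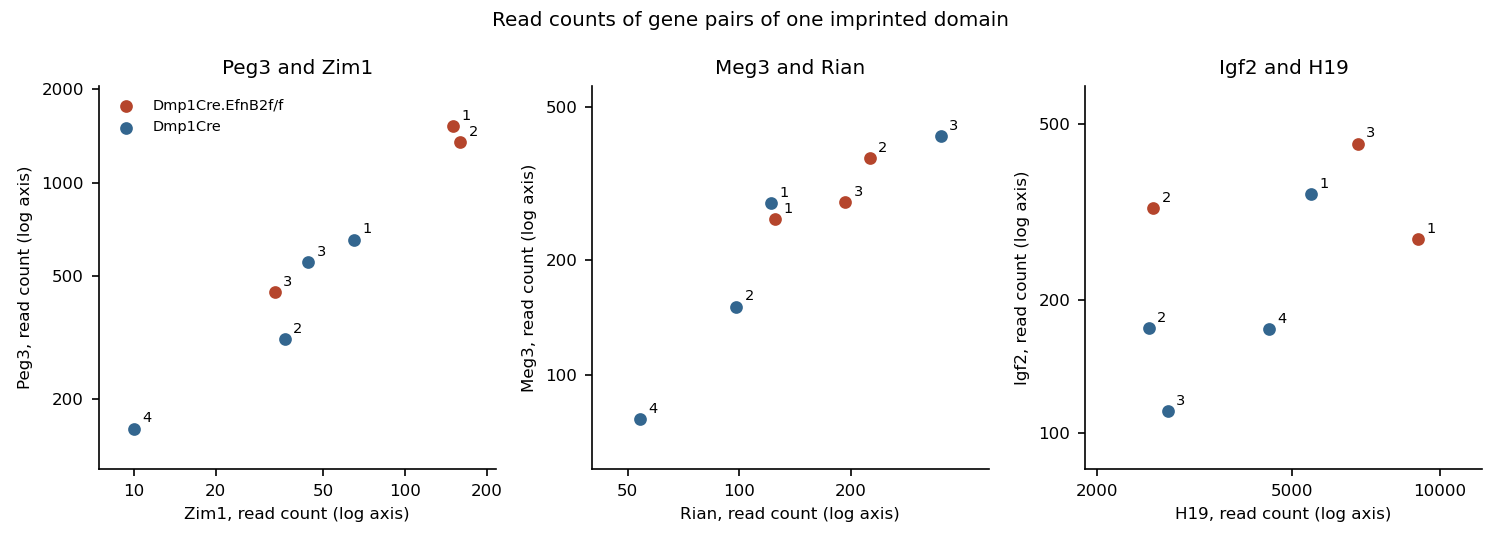
Raw read counts per library on log axes for Peg3 against Zim1, Meg3 against Rian and Igf2 against H19, with libraries labelled Dmp1Cre.EfnB2f/f in red and Dmp1Cre in blue, and numbers for replicates. The first 2 pairs lie along a line from control 4 (161 and 10 counts for Peg3 and Zim1) upward, and the third is scattered.

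Markers of other cell types moved with some members. The skeletal muscle fibre list (12 of 12 measured) summed to 30555 to 45504 CPM in the Dmp1Cre.EfnB2f/f-labelled libraries and 14550 to 32526 CPM in the controls. All 12 muscle fibre markers had a positive log2 fold change, where 51.3% of all genes did. The adipocyte list (6 of 6 measured) summed to 407.2 to 861.3 CPM against 291.5 to 671.4 CPM. No marker of either list was at zero in every library. Of 12 marker lists, the summed adipocyte and muscle fibre markers were the nearest to Peg3 (RMS difference 0.60 and 0.81, beside 1.05 for a flat profile) and to Zim1 (0.79 and 1.01, beside 1.21). The same lists were nearest to Meg3, with muscle fibre first (0.57, and 0.66 for adipocyte, beside 0.78). The muscle fibre sum was 30555, 45504 and 34585 CPM in Dmp1Cre.EfnB2f/f 1 to 3, beside 84.3, 74.2 and 23.4 CPM of Peg3. In controls 1 to 4 it was 15143, 14550, 32526 and 16542 CPM, beside 33.9, 17.9, 32.4 and 8.75 CPM. In Dmp1Cre.EfnB2f/f 1 the largest adipocyte markers were Lpl and Fabp4 (428.1 and 267.5 CPM), which vessels and muscle also express. The largest was Adipoq in control 4, beside 89.9 CPM of Lpl and 48.8 CPM of Fabp4, and Cfd in control 1. Adipoq had 108.6, 96.4 and 81.8 CPM in Dmp1Cre.EfnB2f/f 1 to 3 and 97.7, 52.7, 50.4 and 113.7 CPM in controls 1 to 4. Plin1 and Cfd were highest in control 1 (25.6 and 284.7 CPM) and Lep in Dmp1Cre.EfnB2f/f 2 (2.63 CPM). Peg3 was highest in Dmp1Cre.EfnB2f/f 1 and lowest in control 4. The part of these cells in the Peg3, Zim1 and Meg3 levels was not tested.

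Endothelial markers (6 of 6 measured) summed to 426.8 to 517.9 CPM in the Dmp1Cre.EfnB2f/f-labelled libraries and 327.6 to 412.0 CPM in the controls, without overlap. Singly, 3 of the 6 were higher without overlap, where 5.05% of all genes were, and Cdh5 was highest in control 4 (80.7 CPM). The summed endothelial markers were the nearest list to Cdkn1c (RMS difference 0.18, beside 0.31 for a flat profile), Plagl1 (0.30, beside 0.42), H19 (0.54, beside 0.64) and Mest (0.36, beside 0.36). The satellite cell and myoblast list (6 of 6 measured) was the nearest to Grb10 (0.19, beside 0.30) and Igf2 (0.42, beside 0.60), with sums of 25.7 to 30.0 CPM against 19.1 to 51.5 CPM, the highest in control 1. That peak was mostly Cdh15 (33.6 CPM) and Chodl (14.3 CPM), while Pax7, Myf5, Myod1 and Myog were at 0.10 to 1.81 CPM in control 1 and none of them was highest there. Summed erythroid markers (6 of 7 measured) were lower without overlap, at 6585 to 13384 CPM against 15406 to 43274 CPM, as were summed granulocyte markers (6 of 6) at 9570.5 to 12017 CPM against 13923 to 15573 CPM. Singly, 5 of the 6 erythroid and 2 of the 6 granulocyte markers were lower without overlap, where 6.3% of all genes were. The part of these cells in the levels of the members was not tested.

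Other listed genes of imprinted domains did not share a direction, and whether each was imprinted in bone was not measured. Of 60 listed, 58 were in the count tables and 44 were tested, of which 25 had a positive log2 fold change, with a median of 0.083. Of all genes tested, 51.3% were positive and the median was 0.012. With edgeR, 0 passed an adjusted p-value of 0.05, and 3 were higher and 2 lower at an unadjusted p-value under 0.05, where 4.63% of all genes were higher and 5.03% lower. Groups were apart for Cobl, Sgce and Slc38a4 (higher, where 5.05% of all genes were) and for Nespas, Trappc9 and Ampd3 (lower, where 6.3% were).

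Slc38a4, a paternally expressed amino acid transporter, had 21.2 ± 8.08 CPM (SD, n = 3) in the Dmp1Cre.EfnB2f/f-labelled libraries and 6.77 ± 4.27 CPM (SD, n = 4) in the controls, with an edgeR log2 fold change of 1.65 ± 0.48 (SE, adjusted p = 0.511). Asb4, an imprinted ankyrin repeat gene, had 149, 151 and 58 counts against 61, 44, 88 and 23, with Dmp1Cre.EfnB2f/f 3 below controls 1 and 3 as for Peg3, and a log2 fold change of 1.12 ± 0.49 (SE). Cobl, a neighbour of Grb10, had a log2 fold change of 0.63 ± 0.25 (SE). Nespas, an antisense RNA of the Gnas domain, was at 1.73 ± 0.271 CPM (SD, n = 3) in the former and 3.95 ± 1.88 CPM (SD, n = 4) in the latter, with a log2 fold change of -1.19 ± 0.38 (SE), and Ampd3, an AMP deaminase, had -0.46 (SE 0.17). In the Peg3 domain itself, Usp29 had 3, 2 and 1 counts against 1, 0, 1 and 0, and Zim3 had 0 counts in all libraries.

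Among the IGF and growth arrest partners, 19 of 21 listed genes were tested, 12 had a positive log2 fold change (51.3% of all genes did), and the median was 0.089. With edgeR, 0 passed the adjusted threshold, and 3 were higher and 1 lower at an unadjusted p-value under 0.05, beside 4.63% and 5.03% of all genes. Igf1, the main growth factor of the family after birth, had 49.7 ± 9.32 CPM (SD, n = 3) in the Dmp1Cre.EfnB2f/f-labelled libraries and 32.8 ± 6.09 CPM (SD, n = 4) in the controls, with a log2 fold change of 0.60 ± 0.21 (SE). Irs1, a substrate of the insulin and IGF1 receptors, had 0.65 (SE 0.23) and Igf2bp2, which binds Igf2 mRNA, had 0.77 (SE 0.26). Plagl2, a relative of Plagl1, was at 36.8 ± 6.69 CPM (SD, n = 3) in the former and 49.2 ± 3.92 CPM (SD, n = 4) in the latter, with a log2 fold change of -0.42 ± 0.17 (SE), opposite in sign to that of Plagl1. Each of these 4 genes had an adjusted p of 0.511 in edgeR.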

How the data were processed

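RNA-seq was made from 7 samples, 3 labelled Dmp1Cre.EfnB2f/f and 4 Dmp1Cre. Base calls were converted with bcl2fastq 2.17.1.14 per the labels. The authors mapped 100 bp paired-end reads to mm10 with Rsubread, assigned them to genes with featureCounts and deposited raw counts per gene, not normalized, filtered or pooled. Strand setting and software versions of mapping were not given in the sources used here. The series table and the library tables held the same counts (0 values differed).

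The members and lists were chosen with earlier results of these data known. Genes reaching 0.65 CPM in 3 or more libraries (16302) entered, less 1204 by class (immunoglobulin segments, ribosomal RNA, predicted genes, pseudogenes, Y and Xist genes, no symbol). The 15098 left were tested with edgeR 4.0.16 (TMM, robust quasi-likelihood, Benjamini-Hochberg, threshold 0.05), without the study's block for the 2 collection days, since the labels do not give each library's day. No source says that each sample was 1 mouse, so p-values measure the spread between samples. The standard error is the log2 fold change over the root of F. Profiles used log2 CPM with a prior count of 2. Count ratios had 0.5 added to each count. Replicates differed by more than sampling noise (chi-square per degree of freedom 28.9 to 226). Alternatives were library size, upper-quartile factors, DESeq2 1.42.0, limma 3.58.1 with and without quality weights, no filter, all classes, blocks, and leaving out each library. Named genes were all members, listed genes past the threshold or else with an unadjusted p under 0.05, Peg3-domain neighbours, and the 5 nearest profiles. Sgce and Trappc9, named for groups without overlap, and Rian, Rtl1, Copg2 and Kcnq1ot1, named as neighbours, were added after their values were seen, as were the distances to marker sums.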

Additional observations from a re-analysis of the deposited data

Results flagged for a closer look

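Among 25 sets of 4 control values (members, count ratios and summed cell type markers), 5 had 1 library far from the other 3, by Dixon's gap over range. Chance gives about 1 in 20, or 1.25 of 25. Grb10 was set apart by its high level in control 1, with a gap of 0.868 of the range. In the same library the summed satellite cell and myoblast markers (0.964) and the fibroblast and periosteum markers (0.868) were apart on the high side. The skeletal muscle fibre sum was high in control 3 (0.889), and the erythroid sum in control 4 (0.842).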

How the results depend on the processing

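In 16 alternatives per member, the log2 fold changes of Plagl1, Igf2, H19, Mest, Cdkn1c and Grb10 were positive throughout. Those of Peg3, Zim1 and Meg3 turned only with the parent cross as a block (-0.47, -0.56 and -0.72), a fit that rests on 1 library of each genotype and left 308 genes at an unadjusted p under 0.05. DESeq2 called 24 genes higher and 48 lower, with 0 of the members not chosen for their difference among them. With 4962 genes at an unadjusted p under 0.05, the limma pipeline with quality weights called 1131 genes higher and 1115 lower. That was 7.49% and 7.39% of all genes tested. It called 2 of the 7 tested members not chosen for their difference higher (Igf2 and Cdkn1c). Of the 44 other tested genes of imprinted domains, it called 4 higher (Cobl, Asb4, Slc38a4 and Dcn) and 3 lower (Nespas, Gatm and Ampd3), beside those shares of all genes. Without the weights it called 0 genes, with 1603 at an unadjusted p under 0.05. Leaving out 1 library at a time gave 0 to 1 genes higher, 0 to 2 lower and 433 (without Dmp1Cre.EfnB2f/f 1) to 2393 (without control 3) at an unadjusted p under 0.05, 594 without Dmp1Cre.EfnB2f/f 2 and 958 without control 4. The difference in the log2 ratio of Igf2 to H19 then ranged from -0.18 to 0.84 and that of Dlk1 to Meg3 from -0.035 to 0.78. The cause of these changes was not tested.

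With the replicate number as a block, 1 gene was called higher, 0 lower and 577 had an unadjusted p under 0.05, and the log2 fold changes were 0.99 for Peg3 and 1.00 for Zim1. The numbers did not pair the samples: deviations of same-numbered libraries correlated at -0.145, 0.063 and -0.419, and 0 of 3 libraries correlated best with their own number. Low counts limit Zim1 (10 in control 4) and Dlk1 (2 to 8).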
